A study of Mus musculus with 6 samples.

Results

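The nuclear genes for the proteins of the mitochondrial ribosome were followed in day 4 (D4) embryoid bodies (EBs). Members were every gene listed under a symbol made of *Mrpl* or *Mrps* and a number, which gave 76 of the 15266 genes listed, 47 *Mrpl* genes and 29 *Mrps* genes. All 76 passed the low-count filter that left 12891 genes for testing. EBs are aggregates of differentiating mouse embryonic stem cells (mESCs) that pass through stages resembling gastrulation. mRNA-seq libraries came from 2 edited lines of W9.5 mESCs, with 3 replicates of each. EVX1-Δfs, clone 14, carries small frameshift deletions on both *Evx1* alleles in the exon that encodes the homeodomain, and its antisense gene *Evx1as* was left in place. Del#3 (*Evx1/Evx1as*Δ2.6kb) carries a deletion of 2.6 kb across both genes. Both lines therefore lack functional EVX1, a homeobox transcription factor of the posterior primitive streak. Del#3 further loses most RNA of *Evx1* and of *Evx1as*, and the deleted DNA. The comparison between the lines cannot tell these losses apart. Cells of both lines were differentiated for 4 days in medium with serum and without LIF. Each line was analysed here as 1 clone, so differences between the lines and between clones cannot be told apart, and no library of unedited cells was analysed here. The replicates were separate differentiations set up on 3 different days, with both lines side by side on each day. The same replicate number in both lines was taken to mean the same day, which the sample titles do not state.

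Mitochondria keep their own ribosome, which translates the few proteins still encoded in mitochondrial DNA, all of them subunits of the respiratory chain and the ATP synthase. Its RNAs are made inside the organelle, but every one of its proteins is encoded in the nucleus, made on cytosolic ribosomes and imported. *Mrpl* genes are named for the large subunit, which joins amino acids, and *Mrps* genes for the small subunit, which reads the mRNA, although the products of *Mrps18a* and *Mrps30* were later placed in the large subunit. Some members have a relative in the bacterial ribosome, and others are found only in mitochondria. By a list written from general knowledge, 47 members had a bacterial relative and 29 were specific to mitochondria. No mitochondrially encoded gene was listed, so the RNAs that this ribosome translates were not analysed here.

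Depth, as reads counted on the listed genes, was 9024579 to 15699124 in the 6 libraries. Throughout, 3 values given for a line are those of replicates 1, 2 and 3 in that order. The libraries carried their labels: *Evx1* stood at 2655, 3671 and 3051 normalized counts in EVX1-Δfs and at 38.3, 32.5 and 33.1 in Del#3 (log2 fold change -6.45, limma adjusted p = 1.05e-06). *Evx1as*, listed as 5730457N03Rik, was also lower in Del#3 (log2 fold change -4.70, limma adjusted p = 0.000155). Marker lists for epiblast, streak and mesoderm, endoderm, extraembryonic endoderm, blood, neural and fibroblast cells had 0 genes called between the lines each. The 6 streak and nascent mesoderm markers summed to 696 to 863 RPM (reads scaled to the library's total on listed genes) in EVX1-Δfs and 603 to 812 RPM in Del#3, with the lowest sum of each line in replicate 1. The 5 pluripotent and epiblast markers summed to 1699 to 2421 RPM and 1531 to 2348 RPM. Of the other lists, *Ptprc* (blood), *Neurog2* (neural), *Dcn* and *Lum* (fibroblast) were not among the listed genes.

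Promoters of members are shown first because the genes lie on 17 chromosomes, 10 of them on chromosome 11, and 3 classes of factor are known regulators of nuclear genes for mitochondrial proteins. NRF1 binds a palindromic GC-rich element, ETS factors such as GABP (NRF2) bind a purine-rich element, and YY1 binds near the start site of many of these genes. Promoters from the RefSeq table for GRCm38.p6, 250 bases before to 50 bases after each start, were matched for 67 of the 76 members. The letters GCGC, any base, then TGCGC (NRF1), on either strand, were in 12 member promoters (17.9%), against 4.78% of all 27025 promoters and 10.5% of the 9590 promoters of tested genes. CCGGAAG (ETS) was in 23 (34.3%), against 9.12% of all and 17.8% of tested promoters. AAGATGGCG (YY1) was in 8 (11.9%), against 1.49% and 3.23%. For a more common GC-rich element, GGGCGG (SP1/KLF), the member share was 33 of 67 (49.3%), against 35.9% of all and 66.8% of tested promoters. In all, 38 of these 67 member promoters held at least 1 match to the NRF1, ETS or YY1 letters. The share of all or tested promoters with any of these letters was not counted, so this total has no background. These shares are descriptions of letters in a fixed window, and no binding was measured.

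The promoters of the 4 members with the smallest p between differentiation days, *Mrpl33*, *Mrpl17*, *Mrpl34* and *Mrpl35*, of the member that differed most in the other direction between days, *Mrps23*, and of the stalk gene *Mrpl12* are printed because the results below turn on these genes. Each reads 5′ to 3′ on the strand of its gene, and capitals mark the NRF1, ETS or YY1 letters, on whichever strand they were found. They lie in GRCm38.p6 at chr5:31613701-31614000 (plus strand), chr7:105811038-105811337 (minus strand), chr8:71464676-71464975 (plus strand), chr6:71823735-71824034 (minus strand), chr11:88204138-88204437 (plus strand) and chr11:120484387-120484686 (plus strand).
Mrpl33: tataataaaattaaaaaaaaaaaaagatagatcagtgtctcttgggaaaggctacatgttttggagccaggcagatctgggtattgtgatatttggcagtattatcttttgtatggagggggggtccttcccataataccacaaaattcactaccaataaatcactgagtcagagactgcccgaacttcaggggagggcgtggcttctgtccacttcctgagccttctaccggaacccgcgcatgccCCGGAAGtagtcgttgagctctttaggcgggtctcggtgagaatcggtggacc
Mrpl17: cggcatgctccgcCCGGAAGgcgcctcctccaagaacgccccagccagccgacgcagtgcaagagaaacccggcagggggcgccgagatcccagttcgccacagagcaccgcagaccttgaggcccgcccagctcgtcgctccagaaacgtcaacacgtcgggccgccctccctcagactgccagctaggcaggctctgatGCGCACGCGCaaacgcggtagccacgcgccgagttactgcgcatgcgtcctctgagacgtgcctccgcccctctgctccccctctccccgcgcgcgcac
Mrpl34: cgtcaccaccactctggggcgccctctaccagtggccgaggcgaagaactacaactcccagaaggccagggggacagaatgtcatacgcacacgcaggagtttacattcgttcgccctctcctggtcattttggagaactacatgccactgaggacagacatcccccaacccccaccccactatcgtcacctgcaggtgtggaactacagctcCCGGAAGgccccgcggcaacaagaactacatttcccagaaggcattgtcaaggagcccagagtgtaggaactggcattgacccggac
Mrpl35: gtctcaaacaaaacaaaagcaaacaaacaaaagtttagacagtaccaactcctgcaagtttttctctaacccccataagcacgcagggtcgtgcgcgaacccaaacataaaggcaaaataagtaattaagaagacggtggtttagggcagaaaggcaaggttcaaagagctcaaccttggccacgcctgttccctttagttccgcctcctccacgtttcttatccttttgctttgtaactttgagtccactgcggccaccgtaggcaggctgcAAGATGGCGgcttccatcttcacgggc
Mrps23: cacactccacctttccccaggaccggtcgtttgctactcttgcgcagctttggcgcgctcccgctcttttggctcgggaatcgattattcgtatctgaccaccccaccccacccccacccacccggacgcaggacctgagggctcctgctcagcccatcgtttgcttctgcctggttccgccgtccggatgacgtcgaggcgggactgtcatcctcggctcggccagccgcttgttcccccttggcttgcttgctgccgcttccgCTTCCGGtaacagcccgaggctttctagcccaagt
Mrpl12: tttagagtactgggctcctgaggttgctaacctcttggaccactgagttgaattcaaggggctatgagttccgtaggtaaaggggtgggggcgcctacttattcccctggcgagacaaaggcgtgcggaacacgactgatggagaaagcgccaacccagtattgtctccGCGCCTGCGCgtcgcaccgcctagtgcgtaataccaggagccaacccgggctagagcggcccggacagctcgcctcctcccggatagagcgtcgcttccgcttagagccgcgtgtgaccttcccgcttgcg

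Each of these 6 promoters held at least 1 match, as did 38 of 67 member promoters, but not to the same letters. *Mrpl33* had ETS letters that began 3 bases before the start, and *Mrpl34* had them beginning 37 bases before it. *Mrps23* had ETS letters on the reverse strand, within the transcribed bases. *Mrpl35* had the YY1 letters, also after the start. *Mrpl17* had NRF1 letters beginning 49 bases before the start and ETS letters far upstream of them, and *Mrpl12* had NRF1 letters beginning 81 bases before the start.

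In level, members spanned a wide range. RPKM, reads scaled to library depth and to the kilobases of merged exons, allow genes to be compared per length. They ranged from 3.97 to 264 over the means of 6 libraries, with a median of 35.5, 36.8 for *Mrpl* genes and 33.1 for *Mrps* genes. The highest was *Mrpl34*, a small large-subunit protein with a bacterial relative (264 ± 90.2 RPKM, SD, n = 6). Next came *Mrpl12* (169 ± 19.3 RPKM), the flexible stalk protein that recruits translation factors, *Mrps28* (148 ± 49.5 RPKM) of the small subunit, and *Mrpl52* (99.5 ± 31.7 RPKM), a mitochondria-specific protein of the large subunit. Of these, *Mrpl34* and *Mrps28* had the wider spread, and the spreads of all neighbours in this order overlapped. The lowest were *Mrpl48* (3.97 ± 0.804 RPKM), *Mrps10* (4.41 ± 0.803 RPKM) and *Mrpl33* (6.23 ± 2.66 RPKM).

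This order depended on the length used, at both ends. With the length of the transcript that has the longest coding sequence, chosen after the data were seen, *Mrps10* was at 35.0 RPKM, 54th of 76, and *Mrpl33* at 21.4 RPKM, 66th. *Mrpl48*, whose exons share bases with another gene on the same strand, remained last at 5.68 RPKM. *Mrpl34*, *Mrpl12* and *Mrps28* remained the first 3, with *Mrpl12* at 197 RPKM. Below them, *Mrpl52* moved from 4th to 8th and *Mrps21* from 25th to 7th. The Spearman correlation of the 2 orders was 0.838 across 76 genes, which are not independent replicates. In reads, the lowest member in any library had 146 and the highest 4136, so each member was counted well above 0 in every library.

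**Figure D1:**
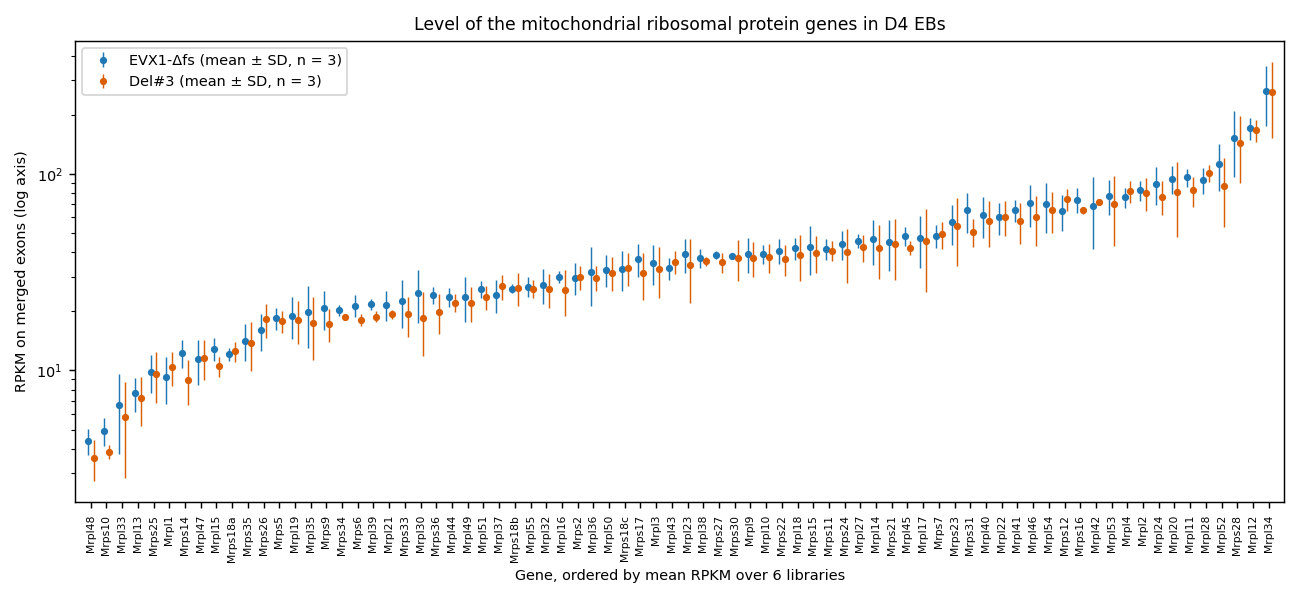
Mean RPKM on merged exons (log axis) of each member in EVX1-Δfs and Del#3, with bars of 1 SD over 3 replicates, ordered by the mean over 6 libraries from *Mrpl48* (3.97) to *Mrpl34* (264). The bars of the lines overlap or lie close for nearly every gene, and the order of genes is much wider than the gap between lines.

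No member was called between the lines. By limma on log2(normalized count + 1), 0 of 76 passed an adjusted p of 0.05, against 0.0155% of all 12891 genes, which is 2 genes. At an unadjusted p under 0.05, 0 of 76 passed, against 1.03% of all genes, and the smallest member p was 0.126, for *Mrps14*. DESeq2's Wald test and edgeR's quasi-likelihood test also called 0 members, with 0 at an unadjusted p under 0.05 each. Standard errors were near those of other genes, with a median of 0.27 for members and 0.32 for all genes. The 95% confidence interval excluded a change of 2-fold, up or down, for 67 of 76 members (88.2%) and for 61.1% of all genes. With the replicate number, taken to mark the day, as a block, it did so for 74 of 76 members (97.4%) and for 76.2% of all genes. For the other members a difference of 2-fold or more was not excluded by the interval, and none of these results shows that the levels were equal. In bulk EBs, fewer cells of a type and less RNA per cell cannot be told apart.

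Small differences leaned to 1 side. The log2 fold change of Del#3 against EVX1-Δfs was below 0 for 67 of the 76 members and above 0 for 9, with a median of -0.13 and a range from -0.51 to 0.18, while 49.6% of all genes were below 0 and their median was 0.002. The median was -0.14 for *Mrpl* genes and -0.12 for *Mrps* genes, -0.12 for members with a bacterial relative and -0.14 for mitochondria-specific members, so these medians lay close together. This lean changed when single libraries were left out. Without Del#3 replicate 1 the median was 0.03, with 35 of 76 below 0. Without EVX1-Δfs replicate 3 it was -0.04, with 45 below 0. Without Del#3 replicate 2 it was -0.30, with 70 below 0. Without EVX1-Δfs replicate 1 or 2 it was -0.20 or -0.21. Line comparisons with 1 library left out had no block, here and below. Line and replicate were thus unbalanced in them, and their parts cannot be told apart. Taken day by day, the median difference was -0.30 on the day of replicate 1, 0.23 on that of replicate 2 and -0.37 on that of replicate 3, with 67, 11 and 68 members below 0. The sign of the difference between lines thus turned over between replicate numbers. With log2 values corrected for the length and GC content of transcripts, the members' median was -0.07, with 52 below 0, against -0.02 for all genes.

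**Figure D2:**
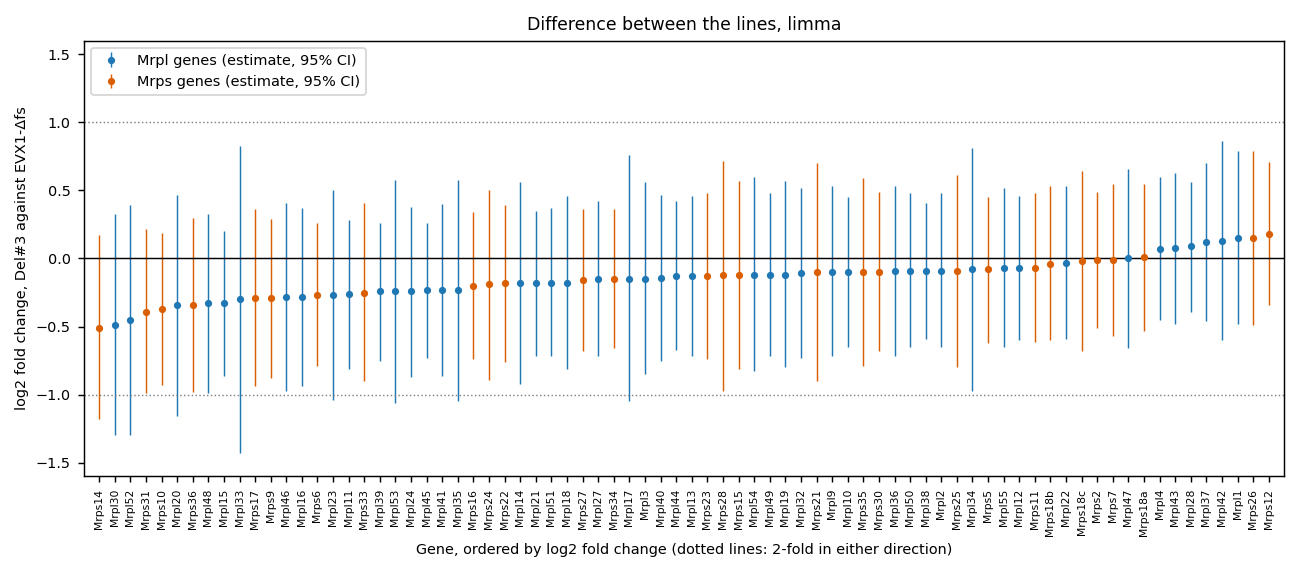
Log2 fold change of Del#3 against EVX1-Δfs (limma) for each member, with its 95% confidence interval, ordered from *Mrps14* (-0.51) to *Mrps12* (0.18). Every interval contains 0, and most lie between the dotted lines at a 2-fold change.

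The members with the lowest fold changes belong to both subunits. *Mrps14*, a small-subunit protein with a bacterial relative, stood at 395, 369 and 532 normalized counts in EVX1-Δfs and at 206, 406 and 321 in Del#3. The groups overlapped, and only the first Del#3 library lay far below the rest. Its log2 fold change was -0.51 (SE 0.30, limma adjusted p = 1.000; two-sided exact permutation p = 0.30, where 0.10 is the smallest that 3 against 3 allow). *Mrpl30*, of the large subunit, stood at 405, 443 and 744 in EVX1-Δfs and at 218, 543 and 405 in Del#3, again lowest in Del#3 replicate 1 (log2 fold change -0.49, SE 0.37). *Mrpl52* stood at 348, 491 and 663 against 197, 475 and 472 (log2 fold change -0.45, SE 0.38). It was lower in Del#3 on all 3 days (log2 differences -0.82, -0.05 and -0.49). *Mrps31*, a mitochondria-specific protein of the small subunit, stood at 855, 972 and 1428 against 633, 892 and 939 (log2 fold change -0.39, SE 0.27, limma adjusted p = 1.000). It too was lower in Del#3 on all 3 days (log2 differences -0.43, -0.12 and -0.61). Further members had this order, among them *Mrps6* and *Mrps17*, and the share of all genes with it was not counted. With the replicate block, the unadjusted limma p of these genes was 0.0622 for *Mrps14*, 0.0892 for *Mrpl30*, 0.0538 for *Mrpl52* and 0.0531 for *Mrps31*, and none passed after adjustment. Leaving out 1 library moved the log2 fold change of each by over 1.5 times. The range was -0.73 (without Del#3 replicate 2) to -0.24 (without Del#3 replicate 1) for *Mrps14*, and -0.78 to -0.12, without the same libraries, for *Mrpl30*. For *Mrpl52* it was -0.69 (without EVX1-Δfs replicate 1) to -0.03 (without Del#3 replicate 1), and for *Mrps31* -0.54 (without EVX1-Δfs replicate 1) to -0.17 (without EVX1-Δfs replicate 3).

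At the other end, *Mrps12*, a protein of the decoding centre, stood at 676, 863 and 610 normalized counts in EVX1-Δfs and 748, 758 and 916 in Del#3, so the groups overlapped (log2 fold change 0.18, SE 0.24; 0.07 without EVX1-Δfs replicate 3 and 0.32 without EVX1-Δfs replicate 2). *Mrpl1*, of the mobile stalk beside the exit site for tRNA, had a log2 fold change of 0.15 (SE 0.29), and *Mrps26*, a mitochondria-specific small-subunit protein, 0.15 (SE 0.29). *Mrpl42* had 0.13 (SE 0.33), with 265 normalized counts in EVX1-Δfs replicate 2 and 488 to 611 in the other 5 libraries. For 1 member, *Mrps6*, all 3 Del#3 values were lower than all 3 EVX1-Δfs values, as for 1.80% of all genes. It stood at 402, 322 and 369 against 301, 307 and 296, and was named after its values were seen because no other member had this pattern (log2 fold change -0.27, SE 0.24, exact permutation p = 0.10). Its exons share bases with *Slc5a3* on the same strand. No member had the opposite pattern, which 1.71% of all genes showed.

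Genes of the stalk and of the reaction centre were read by role. The stalk is the arm of the large subunit that receives translation factors, with *Mrpl11* at its base, *Mrpl10* as the anchor and *Mrpl12* as the mobile tip. *Mrpl12* stood at 2730, 2417 and 3325 normalized counts in EVX1-Δfs and at 2310, 3309 and 2480 in Del#3, with full overlap (log2 fold change -0.07, SE 0.24). *Mrpl10* had a log2 fold change of -0.10 (SE 0.25) and *Mrpl11* of -0.26 (SE 0.25). Leaving out Del#3 replicate 2 gave -0.44 for *Mrpl11*, and leaving out Del#3 replicate 3 gave -0.13. *Mrpl3*, near the site where amino acids are joined, had -0.15 (SE 0.32). *Mrps7*, of the head of the small subunit, had -0.01 (SE 0.25), *Mrpl44*, whose fold resembles RNase III, had -0.13 (SE 0.24), and *Mrps30* had -0.10 (SE 0.26). For *Mrpl44* these libraries gave -0.22 and -0.03.

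The 3 paralogs of bacterial S18 were expressed together at moderate levels. *Mrps18a* stood at 484, 492 and 460 normalized counts in EVX1-Δfs and at 399, 588 and 476 in Del#3. *Mrps18b* stood at 537, 612 and 607 against 473, 758 and 513, and *Mrps18c* at 329, 315 and 507 against 273, 467 and 395. Their log2 fold changes were 0.01 (SE 0.24), -0.04 (SE 0.25) and -0.02 (SE 0.30), and none differed between the lines beyond these errors. Per length, *Mrps18c* (33.1 ± 6.32 RPKM) and *Mrps18b* (26.2 ± 3.34 RPKM) were above *Mrps18a* (12.3 ± 1.14 RPKM) on merged exons. This order was not there with the length of the transcript that has the longest coding sequence, which put *Mrps18a* at 51.4 RPKM, *Mrps18b* at 50.7 RPKM and *Mrps18c* at 55.8 RPKM.

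Members' share of all reads on listed genes did not differ between the lines beyond the spread of replicates. It was 0.506%, 0.540% and 0.617% in EVX1-Δfs and 0.446%, 0.593% and 0.526% in Del#3. The means were 0.554% ± 0.0566 and 0.521% ± 0.0737 (SD, n = 3 each; exact permutation p = 0.50), and the highest library was 1.38 times the lowest. Library medians of the deviation of each member from its own mean, on the log2 scale, were -0.04, 0.02 and 0.30 in EVX1-Δfs and -0.35, 0.25 and -0.06 in Del#3. In Del#3 replicate 1, 64 of 76 members were below their own mean, and in EVX1-Δfs replicate 3 only 9 were. Cytosolic ribosomal protein genes moved in the same libraries, with medians of -0.09, 0.01 and 0.44 in EVX1-Δfs and -0.47, 0.27 and -0.09 in Del#3. Genes of the respiratory chain and ATP synthase had -0.05, 0.02 and 0.30 in EVX1-Δfs and -0.46, 0.27 and -0.05 in Del#3. The median of all genes was 0.02 or 0.03 in every library.

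**Figure D3:**
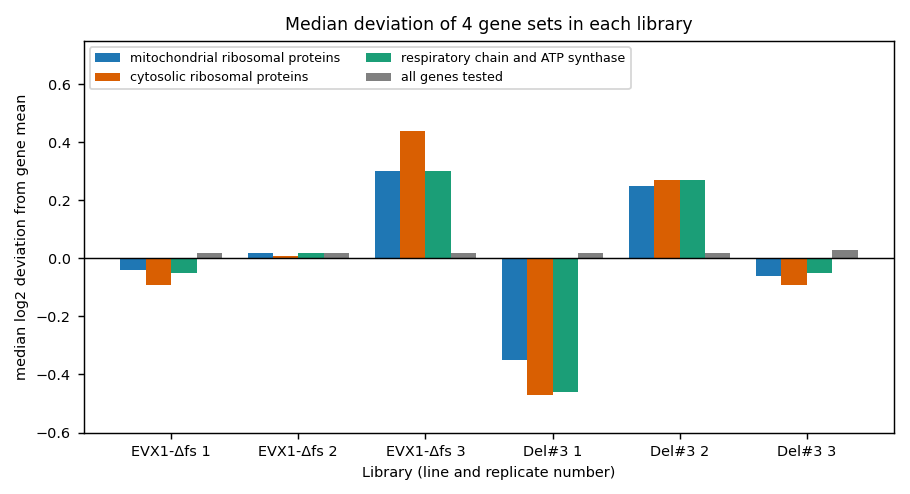
Median log2 deviation from each gene's mean, for members, cytosolic ribosomal protein genes, genes of the respiratory chain and ATP synthase, and all genes tested, in each of 6 libraries. The 3 named groups are high in EVX1-Δfs replicate 3 and Del#3 replicate 2 and low in Del#3 replicate 1 (members: 0.30, 0.25 and -0.35), while all genes stay near 0.

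Other genes of mitochondrial translation were also compared between the lines. Of 46 on the list, all tested, 0 were called and 0 had an unadjusted limma p under 0.05, also by DESeq2 and edgeR, and 33 were below 0, against 49.6% of all genes, with a median of -0.06. Without Del#3 replicate 1, 24 were below 0 and the median was -0.01. By role, with all libraries, 14 of 20 genes for ribosome assembly and rRNA modification were below 0 (median -0.06), as were 9 of 12 translation factors (median -0.10), 5 of 6 genes for transcription and mRNA upkeep (median -0.17) and 5 of 8 further ribosomal or ribosome-bound genes (median -0.03). The lowest were *Mtrf1l*, a release factor (log2 fold change -0.56, SE 0.51), and *Chchd1*, a small-subunit protein named outside the *Mrps* scheme (-0.55, SE 0.29). Highest were *Gtpbp10* (0.32, SE 0.43) and *Noa1* (0.17, SE 0.26), both GTPases of ribosome assembly. Of cytosolic ribosomal protein genes, 0 of 78 tested were called, with a median of -0.27 and values from -0.89 (*Rpl30*) and -0.71 (*Rpl10l*) to 0.19 (*Rps27*) and 0.20 (*Rps2*). Their median was -0.04 without Del#3 replicate 1, with 46 below 0 in place of 73, and -0.16 after the length and GC correction. Of respiratory chain and ATP synthase genes, 0 of 80 were called, with a median of -0.20 and values from -0.68 (*Cox6c*) and -0.44 (*Ndufv2*) to 0.25 (*Atp5s*) and 0.66 (*Ndufa4l2*). Here the median was 0.004 without Del#3 replicate 1, with 38 below 0 in place of 68, and -0.08 with the correction for length and GC content.

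Day took more of the members' variance than line did, but it also has more degrees of freedom, for which the shares are not adjusted. In a model with line and replicate, replicate took 66.6% of the members' variance, line 9.61% and the rest 23.8%, and over all genes these were 60.5%, 13.7% and 25.8%. An F test in limma of the replicate days, with line in the model, called 2 of 76 members (2.63%) at an adjusted p of 0.05, against 4.24% of all genes. Both were lower in replicate 1 than in the mean of replicates 2 and 3, a direction in which 0.675% of all genes were called. At an unadjusted p under 0.05, 26 of 76 members (34.2%) passed, against 27.7% of all genes. Of the members, 56 were lower in replicate 1 (median -0.32, against 0.04 for all genes), and the median difference between replicates 2 and 3 was 0.004. Both replicate 1 libraries lay below the other 4 for 33 members (43.4%), against 22.7% of all genes, and above them for 5 (6.58%), against 22.2%. The first of these shares was much like that of cytosolic ribosomal protein genes (44.9%), respiratory chain and ATP synthase genes (43.8%) and other mitochondrial translation genes (43.5%), whose median day differences were -0.42, -0.38 and -0.12. The second share was 3.85%, 8.75% and 21.7% in these lists, so the other mitochondrial translation genes lay near the background there.

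How many members were called on days varied with the method and the libraries, and so did the share of all genes called. It was 10 of 76 members (13.2%) by DESeq2's likelihood ratio test, against 11.2% of all genes, and 1 (1.32%) by edgeR, against 3.58%. With TMM factors or total reads it was 1, against 2.69% and 2.46% of all genes. With a pseudocount of 5 or at least 10 reads in every library it was 4 (5.26%), against 4.97% and 5.52%. After the correction for length and GC content it was 6 (7.89%), against 2.31% of all genes. Without a low-count filter it was 3 (3.95%), against 3.87%. The members' share was thus below the background in the main test and on either side of it among the alternatives. When 1 library was left out, the lone library of a day was assumed to vary like the others. The count was then 0 without Del#3 replicate 1 (1 member at an unadjusted limma p under 0.05), against 1.64% of all genes, and 1 (1.32%) without EVX1-Δfs replicate 1, against 1.5%. It was 12 (15.8%) without EVX1-Δfs replicate 3, against 19%, and 18 (23.7%) without Del#3 replicate 2, against 11.6%. It was 20 (26.3%) without Del#3 replicate 3, against 25.2%, and 25 (32.9%) without EVX1-Δfs replicate 2, against 17.1%. The 2 replicate 1 libraries were also the deepest, with 15699124 and 12231851 reads, and stood at an extreme of their line in 5 of the 7 marker lists. In EVX1-Δfs and Del#3 they had the lowest sums of streak and nascent mesoderm markers (696 and 603 RPM), definitive endoderm and anterior streak markers (313 and 269 RPM) and neural markers (26.1 and 23.3 RPM). They had the highest sums of extraembryonic endoderm markers (59.8 and 66.5 RPM) and blood markers (157 and 149 RPM). In the pluripotent and epiblast list they stood at 1699 and 2128 RPM and in the fibroblast list at 52.4 and 68.5 RPM, at no shared extreme. Members were shorter than other genes, with a median merged exon length of 1700 bases against 3773, at a similar GC content (50.5% and 50.4%). Across all genes, the day difference had an r of 0.34 with log10 length and -0.38 with GC content, and across members -0.06 and -0.08. With the correction for both, the members' median day difference was -0.28. The part of depth and of these markers in the day difference was not tested.

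*Mrpl33*, which encodes a small large-subunit protein with a bacterial relative, differed most between days. It spans chromosome 5, 31899308 to 32004345 on the plus strand of NCBIM37 (mm9), in 14 merged exon blocks that share bases with *Bre* on the same strand, and such shared bases are not assigned by the authors' counting. Its normalized counts were 275, 566 and 785 in EVX1-Δfs and 179, 676 and 540 in Del#3. In both lines replicate 1 was the lowest by far, and the lines overlapped. The difference of replicate 1 from the other days was -1.51 on the log2 scale (SE 0.23, limma F test adjusted p = 0.030), and the highest library was 4.39 times the lowest, the widest span of any member. Without Del#3 replicate 1 it was -1.28 and no longer called (adjusted p = 0.191).

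*Mrpl17*, whose protein lies near the exit of the peptide tunnel, followed the same pattern at a higher level. It lies on the minus strand of chromosome 7, 112955172 to 112959613, in 2 exon blocks. Its normalized counts were 1345, 2435 and 2572 in EVX1-Δfs and 960, 3032 and 2127 in Del#3. Both replicate 1 libraries stood below the other 4, by -1.15 on the log2 scale (SE 0.21, limma adjusted p = 0.043). It was not called by edgeR (-1.12, adjusted p = 0.0526), or by limma with TMM factors (-1.12, adjusted p = 0.0519) or total reads (-1.03, adjusted p = 0.0579). Nor was it called by limma without EVX1-Δfs replicate 1 (-1.40, adjusted p = 0.111) or without Del#3 replicate 1 (-0.90, adjusted p = 0.605).

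*Mrpl34* and *Mrpl35* came next, just outside the threshold. *Mrpl34*, on chromosome 8 (73988825 to 73989651, plus strand, 2 exon blocks), stood at 1101, 1979 and 2478 normalized counts in EVX1-Δfs and at 940, 2693 and 1804 in Del#3 (day difference -1.12, SE 0.22, limma adjusted p = 0.0526). *Mrpl35*, on chromosome 6 (71762997 to 71773804, minus strand, 4 exon blocks), stood at 540, 716 and 1152 in EVX1-Δfs and at 394, 783 and 894 in Del#3 (-0.92, SE 0.19, limma adjusted p = 0.0545). In both genes the replicate 1 libraries were the 2 lowest, and the call depended on the method. DESeq2's likelihood ratio test called both (adjusted p = 0.00232 and 0.00776). edgeR (adjusted p = 0.0610 and 0.0626), limma with TMM factors (0.0590 and 0.0625) and limma with total reads (0.0676 and 0.0706) called neither. Without Del#3 replicate 1 the limma adjusted p was 0.485 and 0.585, and without EVX1-Δfs replicate 1 it was 0.219 and 0.221. With the correction for length and GC content the day difference was -0.69 for *Mrpl34* (limma adjusted p = 0.0994) and -1.29 for *Mrpl35* (limma adjusted p = 0.0269). Across the alternatives the adjusted p ran from 0.000779 to 0.485 for *Mrpl34* and from 0.00776 to 0.585 for *Mrpl35*.

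*Mrps23*, which encodes a mitochondria-specific protein of the small subunit, went the other way. It lies on chromosome 11, 88017890 to 88025009, on the plus strand, in 5 exon blocks. Its normalized counts were 1160, 816 and 862 in EVX1-Δfs and 1191, 775 and 679 in Del#3, with both replicate 1 libraries above the other 4. The day difference was 0.59 (SE 0.18), the highest of any member, and it did not pass after adjustment (limma adjusted p = 0.141). The other 4 members with this order, *Mrpl28*, *Mrpl36*, *Mrpl40* and *Mrpl49*, had day differences of 0.16, 0.44, 0.40 and 0.39.

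**Figure D4:**
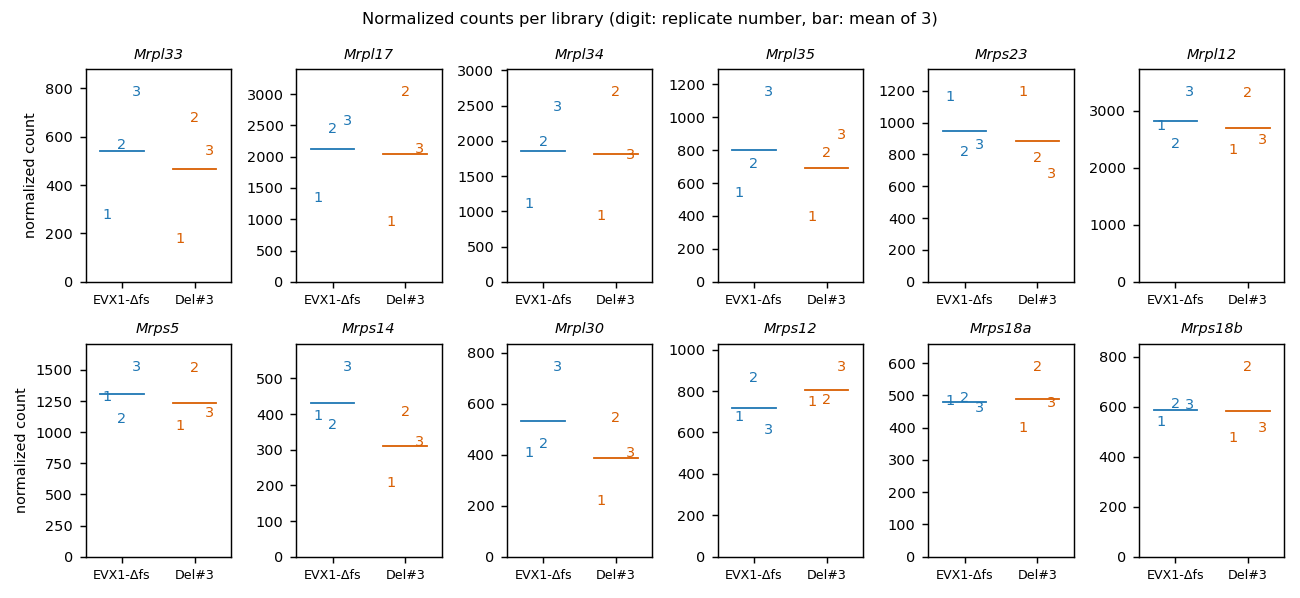
Normalized counts of 12 members in each library, as the replicate number (1 to 3) at its value, with the mean of 3 as a bar and axes starting at 0. In *Mrpl33*, *Mrpl17*, *Mrpl34* and *Mrpl35* the number 1 is lowest in both lines, in *Mrps23* it is highest, and no panel separates the lines.

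Of the other mitochondrial translation genes, 2 of 46 (4.35%) were called on days, against 4.24% of all genes. Both were higher in replicate 1, as were all but 87 of the 546 genes called in all. These were *Fastkd2*, which acts in assembly of the large mitochondrial subunit (279, 65.6 and 141 normalized counts in EVX1-Δfs and 224, 87.1 and 124 in Del#3, day difference 1.31, limma adjusted p = 0.0389), and *Tfam*, which packages and transcribes mitochondrial DNA (762, 292 and 422 against 602, 297 and 422, day difference 0.94, limma adjusted p = 0.0457). Among cytosolic ribosomal protein genes 7 of 78 (8.97%) were called on days, 6 of them lower in replicate 1, and among respiratory chain and ATP synthase genes 8 of 80 (10%), 6 of them lower.

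Members rose and fell together over the libraries only in part. Over 6 libraries, the median Pearson r of log2(normalized count + 1) between pairs of members was 0.545, and 52.6% of pairs were above 0.5. The first principal component held 73.7% of the members' variance. These points share library, depth and line, so the values describe the 6 libraries and carry no test. The same values were not taken for all genes, so nothing here is shown to be particular to members. Most like *Mrpl12* were *Mrps5* (r = 0.996), *Mrps7* (r = 0.968) and *Mrpl18* (r = 0.949), which all had their highest EVX1-Δfs value in replicate 3 and their highest Del#3 value in replicate 2. *Mrps5* stood at 1284, 1109 and 1523 normalized counts in EVX1-Δfs and at 1046, 1512 and 1156 in Del#3. Least like it were *Mrps12* (r = -0.621) and *Mrps2* (r = -0.805), the latter at 962, 1041 and 769 against 976, 863 and 887. The members fell along a range from *Mrpl33* to *Mrps23* in the day difference, and 27 of them spanned more than 2-fold between their highest and lowest library.

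**Figure D5:**
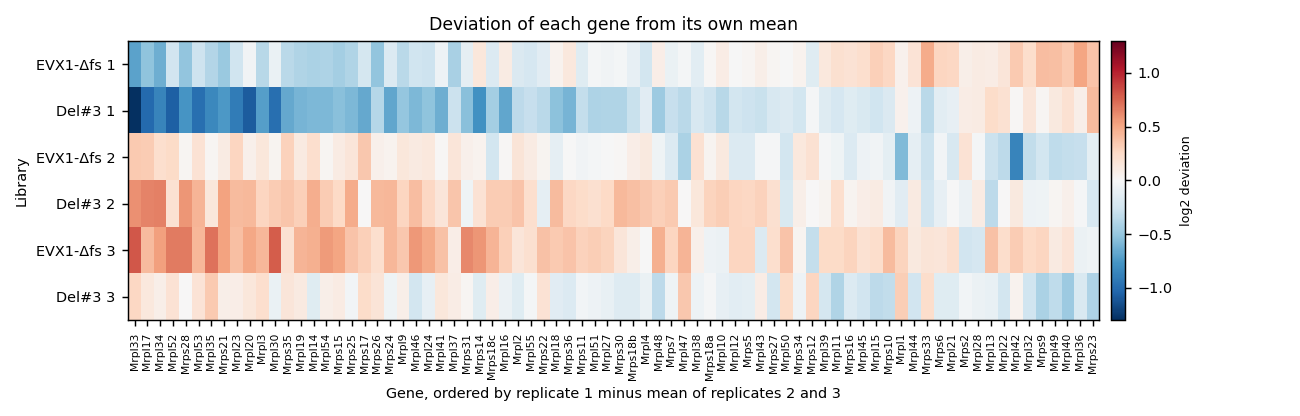
Log2 deviation of each member (columns) from its own mean in each library (rows), ordered by replicate 1 minus the mean of replicates 2 and 3, from *Mrpl33* (-1.51) to *Mrps23* (0.59). Blue fills the left of both replicate 1 rows, most deeply in Del#3, while EVX1-Δfs replicate 3 and Del#3 replicate 2 are mostly red.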

How the data were processed

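mRNA-seq of D4 EBs was analysed from 1 table of 15266 genes by 6 libraries, grouped by the sample titles. TopHat2 and then TMAP were used by the authors to place the Ion Proton reads on mm9, and HTSeq to count them per gene at standard settings, which leave out reads shared by genes or placed in several sites. The deposited signal values are counts divided by a size factor per library: 100% were whole multiples (within 0.001) of 1 step, so the reads were recovered. Totals were 9024579 to 15699124 reads. With 3 replicates per line, the spread between replicates sets the precision.

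Values were tested by limma 3.58.1 (R 4.3.3) with a trend on log2(normalized count + 1), after edgeR 4.0.16 filterByExpr with a minimum count of 10 on the recovered reads (12891 genes), without a block, with Benjamini-Hochberg adjustment over all genes at 0.05. Fold changes are on this log2 scale, which understates low genes. Days were compared by an F test with line in the model. RPKM used merged GENCODE exons of NCBIM37. By the series' design text, differentiations compared side by side shared a day, and replicates fell on different days. That equal numbers in both lines mark a shared day was inferred from this. The deviations of same-numbered libraries from their line means had r of 0.74, 0.32 and -0.05 over all genes and 0.84, 0.50 and 0.50 over members. Alternatives were DESeq2 1.42.0 and edgeR on the recovered reads, pseudocounts of 0.1 and 5, other filters and scalings, the block, a correction for length and GC content (loess, span 0.3; 94.9% of tested genes had both), and leaving out each library. This correction without the block and the coding-transcript length were added after the data were seen.

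Members and lists were chosen with earlier results of these data known. Named members were the 4 highest and 4 lowest line differences, the 4 highest and 3 lowest RPKM, the 4 smallest p over days, genes of set roles (the S18 paralogs, the stalk, *Mrps12*, *Mrps7*, *Mrpl3*, *Mrpl44*, *Mrps30*) and the 3 most like *Mrpl12*; others were named after their values were seen. Exons of 6 members share bases with a gene on the same strand and 22 with one on the opposite strand, and reads there can be left out or split. Methods were tested on simulated data. Comparisons with unedited cells were not analysed here.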

Additional observations from a re-analysis of the deposited data

How the results depend on the processing

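0 members and 0 other mitochondrial translation genes were called between the lines under every alternative run. The members' median line difference was below 0 under each alternative scaling, test, filter and pseudocount (-0.132 to -0.073), and ranged from -0.297 to 0.034 when 1 library was left out. The replicate block changed no call: it gave 0 members in limma and in DESeq2. The count of members called on days was 10 by DESeq2, 1 by edgeR, with TMM factors or with total reads, 4 with a pseudocount of 5 or at least 10 reads everywhere, 6 after the length and GC correction, and 0 to 25 when 1 library was left out. As a share, it was below that of all genes in the main test (2.63% against 4.24%), and above it after this correction (7.89% against 2.31%), by DESeq2 (13.2% against 11.2%), with a pseudocount of 5 (5.26% against 4.97%), without a filter (3.95% against 3.87%) and without EVX1-Δfs replicate 2, Del#3 replicate 2 or Del#3 replicate 3. The cause was not tested.

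Signs of single members turned over, among them *Mrpl33*, at -0.30 with all libraries. With the length and GC correction, with or without the replicate block, the log2 fold change was -0.06 for *Mrpl1*, 0.05 for *Mrpl34*, 0.03 for *Mrps28*, -0.04 for *Mrps18a*, 0.06 for *Mrps18b*, 0.06 for *Mrps18c*, 0.01 for *Mrps7* and 0.01 for *Mrps30*, and the day difference of *Mrpl12* was 0.10. edgeR gave 0.01 for *Mrps18b* and 0.02 for *Mrps7*. TMM factors gave 0.00 for *Mrps7*, and total reads gave 0.01 for *Mrps18c* and 0.02 for *Mrps7*. Leaving out 1 library gave -0.10 to 0.34 for *Mrpl1*, -0.07 to 0.37 for *Mrps26*, -0.27 to 0.33 for *Mrpl42*, -0.43 to 0.33 for *Mrpl34*, -0.23 to 0.05 for *Mrpl12*, -0.44 to 0.23 for *Mrps28*, -0.73 to 0.28 for *Mrpl33*, -0.51 to 0.32 for *Mrpl17*, -0.48 to 0.13 for *Mrpl35*, -0.13 to 0.14 for *Mrps18a*, -0.25 to 0.09 for *Mrps18b*, -0.19 to 0.20 for *Mrps18c*, -0.28 to 0.05 for *Mrpl10*, -0.19 to 0.14 for *Mrps7*, -0.36 to 0.17 for *Mrpl3*, -0.33 to 0.08 for *Mrps30*, -0.24 to 0.03 for *Mrps5* and -0.43 to 0.04 for *Mrpl18*, and -0.38 to 0.01 for the day difference of *Mrpl12*. The line fits with 1 library left out had no block, so shifts between replicates can enter these line differences. None of these members was called between the lines under any alternative. Replicate spread, with 3 libraries per line, limits what can be seen, and the limit differs between members. The 95% confidence interval excluded a 2-fold change for 67 of 76 members, in which smaller changes can pass unseen. In the rest, a change of 2-fold or more can also pass unseen.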
